A study of Mus musculus with 6 samples.

Results

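The 7 smooth muscle genes followed here in the fetal mouse testis were Acta2, Actg2, Tagln, Cnn1, Myh11, Lmod1 and Des. They were picked by gene symbol, and all 7 were found among the 16862 genes of the deposited table. RNA sequencing had been done on male gonads of C57BL/6 embryos at E13.5, in mid-gestation, with 3 wild-type libraries, numbered 1, 3 and 4 as in the labels, and 3 knockout libraries, numbered 5, 7 and 8. The knockout embryos were L/H-Pgds-/-, without the lipocalin-type enzyme encoded by Ptgds and without the hematopoietic one encoded by Hpgds, which both make prostaglandin D2. The comparison asks what the loss of this prostaglandin does to gene expression in the gonad. RNA came from whole frozen gonads, and the labels trace the gonads to different littermates without saying which libraries shared a litter or whether embryos were pooled, so p-values measure the spread between these libraries only.

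Peritubular myoid cells are flat, contractile cells that wrap the testis cords, lay down the basement membrane together with Sertoli cells and later push fluid and sperm along the tubules. Their contractile genes are those of smooth muscle in general: actin and myosin make the filaments, calponin, transgelin and leiomodin bind or build actin filaments, and desmin is the intermediate filament that ties the apparatus to the cell. Many of these genes are switched on by serum response factor (Srf), which binds a sequence called the CArG box, and its cofactor myocardin (Myocd). None of the 7 is restricted to peritubular cells. Vessel walls use the same genes, and embryonic skeletal and heart muscle use several of them. No list used here holds a marker of peritubular cells alone, so the source of these genes within the gonad was not checked. In whole gonads, fewer cells of a type and less RNA per cell cannot be told apart.

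The bases just before the start of the gene are shown for Acta2 and Des, because both were called lower in knockout with all libraries and without wild-type library 1. They are RefSeq sequences of build GRCm38.p6, 250 bases long, written 5′ to 3′ on the gene's own strand; the windows are chr19:34255374-34255623 (minus strand) for Acta2 and chr1:75360042-75360291 (plus strand) for Des. Capitals mark CArG boxes, searched on both strands with at most 1 base other than A or T allowed in their core of 6 bases.
Acta2: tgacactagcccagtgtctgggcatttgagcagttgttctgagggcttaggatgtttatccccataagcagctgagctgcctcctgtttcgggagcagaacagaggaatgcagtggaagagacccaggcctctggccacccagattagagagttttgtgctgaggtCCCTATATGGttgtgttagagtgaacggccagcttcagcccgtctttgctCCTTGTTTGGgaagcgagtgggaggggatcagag
Des: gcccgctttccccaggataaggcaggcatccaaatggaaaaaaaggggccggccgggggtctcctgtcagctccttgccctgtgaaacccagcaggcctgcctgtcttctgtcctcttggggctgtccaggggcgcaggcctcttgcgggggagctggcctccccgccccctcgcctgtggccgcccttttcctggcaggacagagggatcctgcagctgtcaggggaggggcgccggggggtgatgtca
The Acta2 window held 2 such boxes, CCCTATATGG from 84 to 75 bases and CCTTGTTTGG from 34 to 25 bases before the start, each with 1 other base in the core. At least 2 boxes of this kind were found in 0.67% of all 32851 windows of this length, and at least 1 in 8.59%. The windows of Des, Cnn1 and Lmod1 held 0, and Actg2, Myh11 and Tagln had no entry. These matches describe letters only.

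Wild-type library 1 stood apart in muscle genes. Of 25 skeletal muscle markers, 25 were highest in it, and their summed level (in the deposited normalised values) was 66732 there, 5519 and 7656 in wild-type libraries 3 and 4, and 4378 to 4933 in knockout. Of the defining markers, named after their values were seen, Myog held 1667 in wild-type library 1 and 17.4 to 62.8 in the other 5 libraries, and Myf5 held 57.3 there and 0 to 4.0 in the others. The summed level of 9 heart muscle markers was 15202 in that library and 1585 to 3030 in the others. Of these 9, 6 were highest there, and Actc1, an actin of skeletal muscle as well, alone held 9615 of the 15202. The summed skeletal muscle level was also higher in wild-type libraries 3 and 4 than in each knockout library. A single gene, Tnni1, whose values are given below, made up a large part of these sums, and the sums without it were not compared. The part of muscle tissue in the results that follow was not tested. The main tests of the 7 genes are therefore given with all 6 libraries and again without wild-type library 1. These 2 comparisons share the other 5 libraries. Changes of other genes come from all 6 libraries unless stated otherwise, and not all of them are given without wild-type library 1. Ptgds ranged from 6560 to 8712 in wild-type libraries and from 2.94 to 15.2 in knockout libraries. Hpgds ranged from 45.0 to 55.0 and from 87.3 to 103.7; the labels do not give the deleted parts, so Hpgds does not check its side of the genotype.

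Of the 7 genes, 5 (Acta2, Actg2, Tagln, Des and Lmod1) were lower in knockout at an adjusted p under 0.05 and 0 were higher, against a background of 17.0% of all 15116 tested genes called lower and 17.3% called higher. Without wild-type library 1, 4 of 7 were lower (Acta2, Actg2, Tagln and Des) and 0 higher, against 14.3% and 15.5% of all genes. The median log2 change of the 7 was -1.21 with all libraries and -0.67 without that library, beside -0.03 and -0.01 for all genes tested. In 6 of the 7 genes every wild-type library was above every knockout library, which also held for 25.6% of all genes tested; with wild-type libraries 3 and 4 only, the count was again 6 of 7, beside 29.8%. The exception was Myh11. Wild-type library 1 was the highest of the 6 libraries for 7 of 7, beside 22.4% of all genes, at 1.88 to 3.60 times the mean of the other wild-type libraries. With values scaled to equal totals, 4 of 7 were lower and 0 higher in either comparison, against 11.2% lower and 23.2% higher with all libraries (1690 and 3511 genes, in place of 2571 and 2609) and 9.52% and 21.2% without wild-type library 1. With all libraries, a variance prior robust to outlying genes ended the calls of Acta2, Tagln and Des (adjusted p = 0.078, 0.0799 and 0.0971), while all 3 kept them under that prior without wild-type library 1. A prior that does not depend on the mean ended the calls of Acta2, Des and Lmod1 with all libraries (0.068, 0.051 and 0.0772) and that of Acta2 without wild-type library 1 (0.0645). All 7 genes passed the filter on low values.

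**Figure D1:**
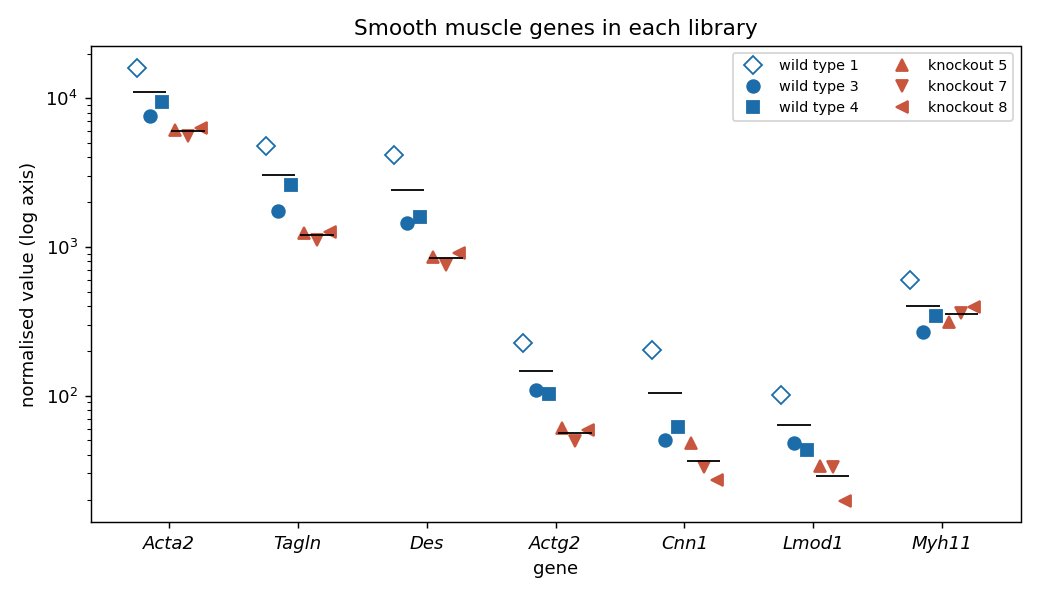
Normalised value (log axis) of each of the 7 genes in each library; blue symbols are wild type (open diamond, library 1), red symbols knockout, and black lines the group means. Wild-type library 1 is the highest point for all 7 genes, and wild-type libraries 3 and 4 lie above the 3 knockout libraries for every gene but Myh11.

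Acta2 encodes the alpha actin of smooth muscle, the usual marker of peritubular myoid cells (NCBI gene 11475, chromosome 19 from 34315581 to 34329826 in mm9). Its normalised value was 16084, 7637 and 9477 in wild-type libraries 1, 3 and 4, and 6164, 5611 and 6304 in knockout libraries 5, 7 and 8. The knockout libraries lay close together, with a mean of 6026 ± 367 (SD, n = 3), and below all wild-type libraries, whose mean was 11066 ± 4442 (SD, n = 3). The log2 change was -0.81 (SE 0.22, limma adjusted p = 0.0169), a 1.75-fold fall, and the call ended without knockout library 7 (adjusted p = 0.0551). In the comparison without wild-type library 1 it was -0.50 (SE 0.12, adjusted p = 0.00877), a 1.41-fold fall, which did not pass when wild-type library 4 was left out as well (adjusted p = 0.195).

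Actg2, the gamma actin of smooth muscle best known from the gut wall (gene 11468, chromosome 6 from 83462903 to 83486245), was expressed at a far lower level. It held 225, 110 and 102 in wild type and 60.2, 49.3 and 58.3 in knockout, with no overlap. The log2 change was -1.27 (SE 0.29, adjusted p = 0.00874), and -0.91 (SE 0.23, adjusted p = 0.0090) without wild-type library 1. The actin genes have near-identical coding sequences, and how the authors assigned reads that match several of them is not given in the sources used here, so the values of Acta2 and Actg2 are uncertain to that extent. Per kilobase of transcript, the cytoplasmic actins Actb and Actg1 stood at 31577 ± 1813 and 264 ± 26.5 in wild type (SD, n = 3).

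Tagln encodes transgelin (SM22), an actin-binding protein of early smooth muscle (gene 21345, chromosome 9 from 45737806 to 45744141). Its values were 4752, 1753 and 2590 in wild type and 1249, 1113 and 1259 in knockout. The 3 knockout libraries were again tightly grouped, and the wild-type libraries were spread. The log2 change was -1.21 (SE 0.27, adjusted p = 0.00828), and -0.82 (SE 0.15, adjusted p = 0.00205) without wild-type library 1, a 1.77-fold fall.

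Des encodes desmin, which smooth, skeletal and heart muscle share (gene 13346, chromosome 1 from 75356919 to 75364290). Wild-type library 1 held 4176, which was 2.75 times the mean of the other wild-type libraries, at 1447 and 1593. The knockout libraries held 861, 758 and 905, below all 3. The log2 change of -1.34 (SE 0.32) with all libraries became -0.86 (SE 0.12) without wild-type library 1, and the adjusted p went from 0.00988 to 0.000636.

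Cnn1 and Lmod1 had low values and wider spreads. Cnn1 encodes calponin 1, a brake on actin-activated myosin of differentiated smooth muscle (gene 12797, chromosome 9 from 21903697 to 21913665). It held 202, 50.3 and 61.6 in wild type and 47.9, 33.4 and 27.2 in knockout. Wild-type library 3 lay only just above knockout library 5. The log2 change of -1.26 (SE 0.46) did not pass (adjusted p = 0.0576), nor did the -0.65 (SE 0.30) without wild-type library 1 (adjusted p = 0.119).

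Lmod1 encodes leiomodin 1, which starts actin filaments in smooth muscle (gene 93689, chromosome 1 from 137221390 to 137264642). It held 101, 48.0 and 42.7 in wild type and 33.7, 33.1 and 19.7 in knockout, without overlap. Its fall of 2.07-fold (log2 -1.05, SE 0.37) was at the edge of the threshold with all libraries (adjusted p = 0.0472). The call ended without wild-type library 1 (log2 -0.67, adjusted p = 0.127), and likewise without wild-type library 4 (0.0504) or knockout library 5, 7 or 8 (0.0751, 0.0717 and 0.145).

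Myh11, the myosin heavy chain of mature smooth muscle (gene 17880, chromosome 16 from 14194620 to 14291501), did not change with the others. It held 600, 270 and 341 in wild type and 312, 360 and 395 in knockout. Wild-type library 1 was highest here too, but the other 5 libraries overlapped, and the lowest value of all was in wild-type library 3. The log2 change was -0.10 (SE 0.25, adjusted p = 0.77) with all libraries and 0.22 (SE 0.16, adjusted p = 0.31) without wild-type library 1, so its sign turned with that library.

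**Figure D2:**
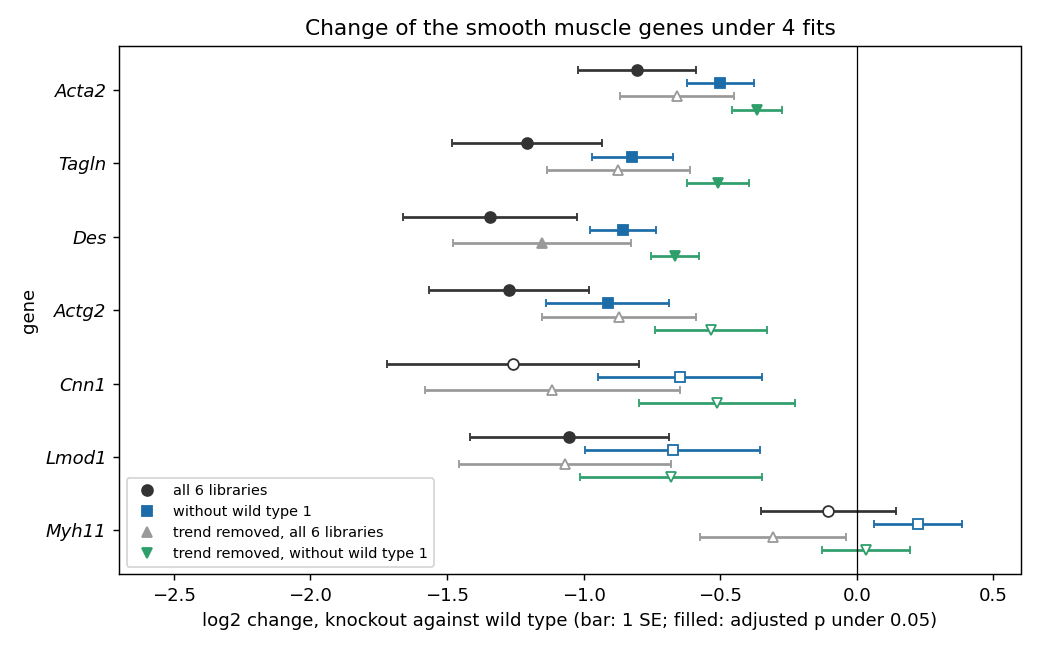
Log2 change of each gene in knockout against wild type, with bars of 1 SE, for all 6 libraries, without wild-type library 1, and for both again once each library's dependence on transcript length and GC content had been taken out; filled symbols have an adjusted p under 0.05. Leaving out wild-type library 1 moves every symbol toward or past 0, and Des is filled in all 4 fits.

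Over all genes, the values of a library also ran with transcript length and GC content, to an extent that differed between libraries. Once this length and GC trend was removed, 1 of 7 genes was lower with all libraries (Des, log2 -1.15, adjusted p = 0.049) and 0 higher, beside 6.64% and 6.07% of all genes. The genes that lost their call were then at log2 changes of -0.66 (Acta2, adjusted p = 0.071), -0.87 (Tagln, 0.0581), -0.87 (Actg2, 0.0752) and -1.07 (Lmod1, 0.104). The same fit without wild-type library 1 called 3 of 7 lower and 0 higher, beside 6.09% and 5.83%: Acta2 (log2 -0.36, SE 0.09, adjusted p = 0.0255), Tagln (-0.51, adjusted p = 0.0153) and Des (-0.67, adjusted p = 0.00206). Actg2 was then at -0.53 (adjusted p = 0.115) and Myh11 at 0.03 (adjusted p = 0.919). Actg2 and Tagln have short transcripts, with 10.6% and 15.9% of tested genes shorter, and Myh11 a long one, with 89.3% shorter.

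Per kilobase of transcript, the order of levels was the same in all 3 wild-type libraries: Acta2, Tagln, Des, Actg2, Myh11, Cnn1 and Lmod1. Acta2 ranged from 3753 to 7904 per kilobase there and Tagln from 1099 to 2979. The ranges of Tagln and Des overlapped, as did those of Actg2 and Myh11, Myh11 and Cnn1, and Cnn1 and Lmod1. In knockout the ranges of neighbours did not overlap. There Myh11, at 47.7 to 60.4 per kilobase, stood above Actg2, at 37.0 to 45.2, in each of the 3 libraries, the reverse of wild type, where Actg2 ranged from 76.4 to 169 and Myh11 from 41.2 to 91.6.

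Within a library, the genes can be set against Acta2. For each 1000 units of Acta2, Myh11 made up 37.3, 35.3 and 35.9 units in wild type and 50.7, 64.1 and 62.7 in knockout. The wild-type values were close together even with library 1 included, and the knockout values lay above them. This was common: 63.9% of all genes tested had every knockout ratio to Acta2 above every wild-type one. Tagln went the other way, with 295, 230 and 273 units in wild type and 203, 198 and 200 in knockout, and so did Des, with 260, 190 and 168 against 140, 135 and 143. Actg2 did too, with 14.0, 14.3 and 10.7 against 9.76, 8.78 and 9.24, while the ratios of Cnn1 and Lmod1 overlapped between genotypes. The share of all genes with every wild-type ratio above every knockout one was not counted. Across all 6 libraries Acta2 and Tagln had a Pearson r of 0.995 on log2 values, and 0.997 without wild-type library 1 (n = 5). The r of Myh11 with the other 6 genes lay between 0.51 and 0.70, and between -0.82 and -0.31 without wild-type library 1. These libraries share the genotype difference, so the correlations are descriptions.

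Of the regulators of these genes, Srf stood at 2775, 2652 and 2588 in wild type and 2504, 1977 and 2330 in knockout. Every wild-type library was above every knockout library, but the difference did not pass (log2 -0.24, SE 0.10, adjusted p = 0.0858). Myocd was low and went the other way: it rose from 23.8 ± 4.41 to 54.3 ± 1.38 (SD, n = 3 each), with all knockout libraries above all wild-type ones (log2 1.17, SE 0.26, adjusted p = 0.00756; without wild-type library 1, log2 1.27, adjusted p = 0.00543). Once that trend was taken out, Myocd stood at a log2 change of 0.93 (adjusted p = 0.0536), or 1.04 (adjusted p = 0.0355) when wild-type library 1 was left out as well. Of 13 tested regulators 2 rose, Myocd and Klf4 (a repressor of the smooth muscle state; log2 0.57, adjusted p = 0.0182), and 3 fell, Fhl2, Tgfb1i1 and Hic1, with a median log2 change of -0.20, beside 17.3% of all genes higher and 17.0% lower. The counts without wild-type library 1 were 2 and 1, with Hic1 the gene that fell, beside 15.5% and 14.3%. With values scaled to equal totals, 4 rose (beside 23.2% of all genes) and 0 fell by limma (beside 11.2%), Hic1 and Fhl2 then having adjusted p of 0.0502 and 0.0592. With the length and GC trend removed, Klf4 was called higher and Tgfb1i1 lower in both comparisons, and Myocd higher only without wild-type library 1. The shares were then 6.07% higher and 6.64% lower, and 5.83% and 6.09% without that library.

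Among the other genes of the contractile apparatus, 9 of 38 were lower and 10 higher (median log2 change 0.07), beside 17.0% and 17.3% of all genes. The counts were again 9 and 10 without wild-type library 1, beside 14.3% and 15.5%. With equal totals, 9 were lower and 15 higher, beside 11.2% and 23.2%. Palld, which encodes the actin crosslinker palladin, rose from 152 ± 38.8 to 531 ± 67.7 (SD, n = 3; log2 1.82, SE 0.19, adjusted p = 0.000802). Ppp1r12a, the targeting subunit of myosin phosphatase, rose from 264 ± 29.6 to 613 ± 57.1 (log2 1.22, adjusted p = 0.000804). Tpm2, beta tropomyosin, fell 2.30-fold (adjusted p = 0.0402), with 8390 in wild-type library 1, 2127 and 2631 in the other wild-type libraries and 1305 to 1736 in knockout, and its fall was 1.51-fold (adjusted p = 0.0075) without that library. Of the genes outside the naming rule, chosen after their values were seen, Myl9, the regulatory light chain of smooth muscle myosin, was lower in knockout with and without wild-type library 1 (log2 -0.96 and -0.81, adjusted p = 0.00201 and 0.00141), as was the essential light chain Myl6 (log2 -0.73 and -0.66). The kinases Rock1 and Rock2, which keep the light chain phosphorylated, were called higher with all libraries (log2 0.77 and 0.55) and without wild-type library 1. With the length and GC trend removed, neither was called in either comparison.

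The genes of that list that fell have short transcripts and those that rose have long ones. The 9 lower genes measured 930 to 2175 nt and the 10 higher ones 4212 to 15459 nt. In the fit free of the length and GC trend, 3 of 38 were lower (Flna, Myl9 and Myl6) and 3 higher, Ppp1r12a and Palld among them. The shares of all genes were then 6.64% and 6.07%. Without wild-type library 1 as well, 2 were lower (Flna and Myl6) and the same 3 higher, beside 6.09% and 5.83% of all genes. Pdlim3, Ldb3 and Nexn, also named after their values were seen and shared with skeletal muscle, were high in wild-type library 1 alone. Ldb3 held 404 there and 12.3 to 28.9 in the other 5 libraries.

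**Figure D3:**
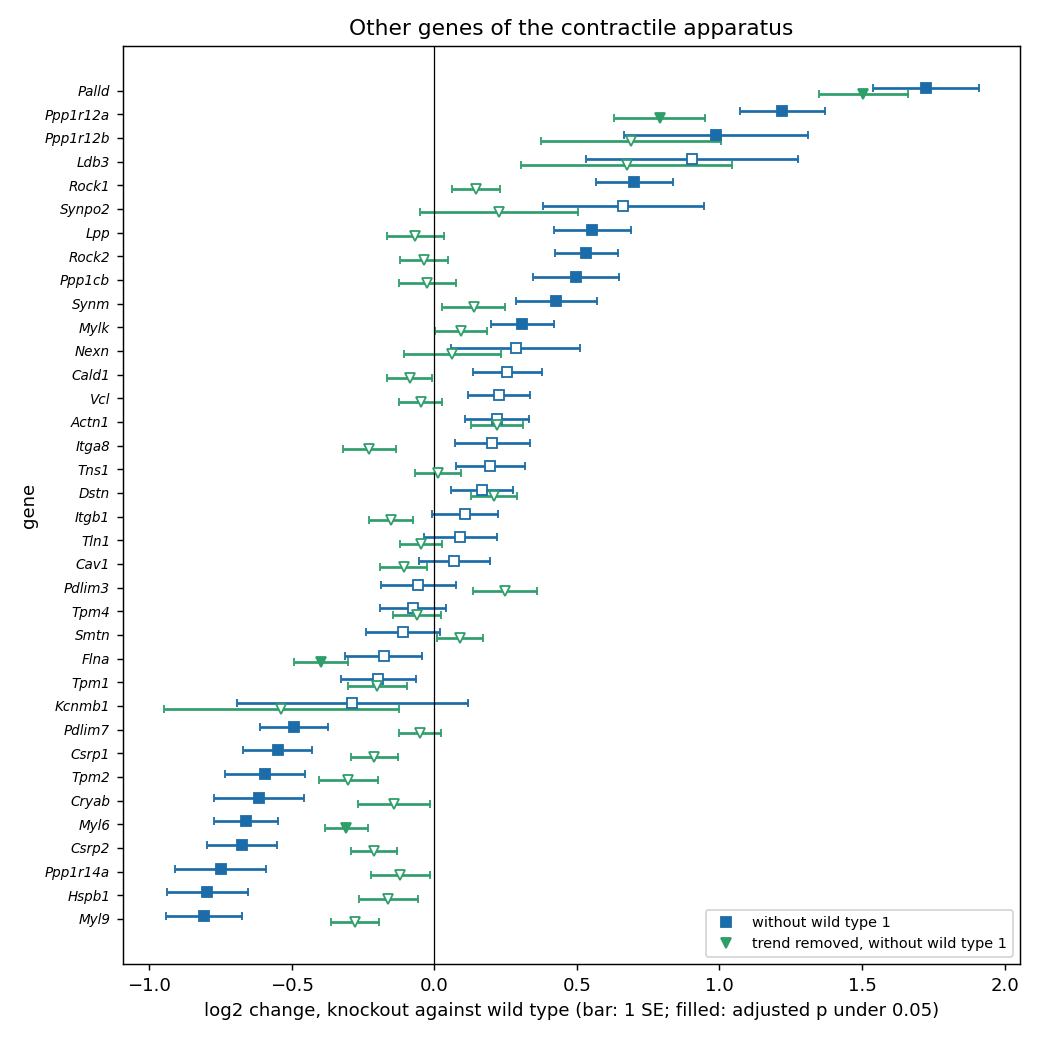
Log2 change of 36 of the 38 other contractile genes in knockout against wild type without wild-type library 1 (squares), and the same once the dependence on length and GC content was taken out (triangles), with bars of 1 SE; filled symbols have an adjusted p under 0.05. The squares run from -0.81 for Myl9 to 1.73 for Palld, and most triangles lie nearer to 0.

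Relatives of the 7 genes were also compared. The nonmuscle myosins Myh9 and Myh10 rose from 5783 ± 604 to 8580 ± 871 and from 3776 ± 462 to 5471 ± 502 (SD, n = 3; log2 0.57 and 0.54, adjusted p = 0.00383 and 0.00489). Cnn2, the calponin of many nonmuscle cells, fell (log2 -0.66, adjusted p = 0.00189) and was also past the threshold with the length and GC trend removed (log2 -0.45, adjusted p = 0.00873). Of 16 tested relatives, 2 were lower and 3 higher, beside 17.0% and 17.3% of all genes. The counts were the same without wild-type library 1, beside 14.3% and 15.5%. With the length and GC trend removed, 1 was lower (Cnn2) and 2 higher (Myh9 and Myh10), beside 6.64% and 6.07% of all genes. Without wild-type library 1 as well, 1 was lower (Cnn2) and 1 higher (Myh9), beside 6.09% and 5.83%, and Myh10 was not called. The actins of skeletal and heart muscle, Acta1 and Actc1, held 7774 and 9615 in wild-type library 1, against 73.5 to 128 and 87.9 to 206 in the other 5 libraries. With that library left out, their log2 changes were -0.10 (adjusted p = 0.802) and -0.22 (adjusted p = 0.604). Actb and Actg1 did not pass in either comparison (adjusted p of at least 0.374).

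**Figure D4:**
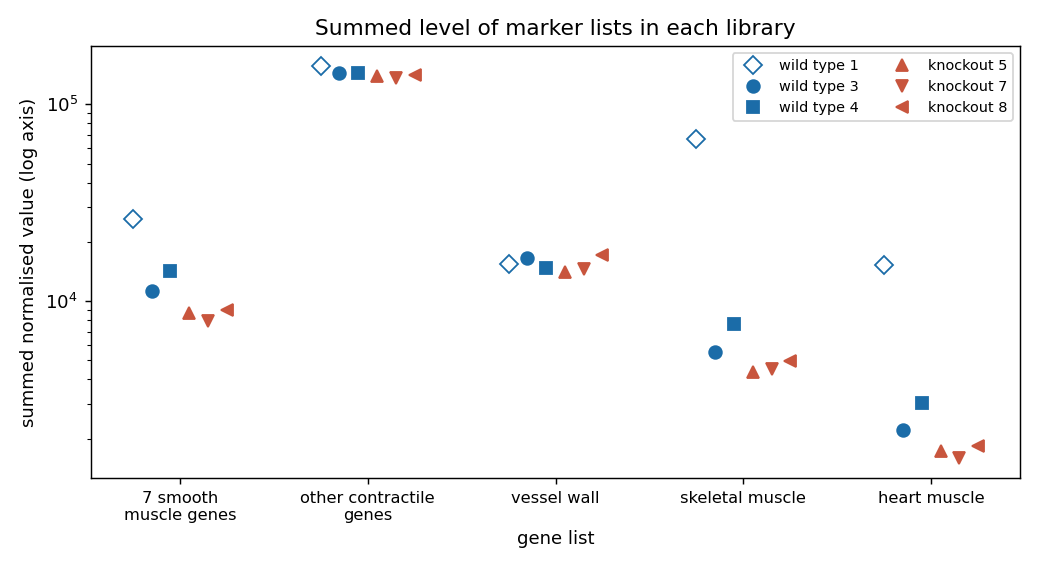
Summed normalised value (log axis) of 5 gene lists in each library, with wild-type libraries in blue (open diamond, library 1) and knockout libraries in red. The vessel wall list lies between 14114 and 17154 in all libraries, while the skeletal muscle list is at 66732 in wild-type library 1 and at most 7656 elsewhere.

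Markers of the vessel wall, a list not limited to its smooth muscle cells, did not separate the genotypes as a sum. That sum was 14789 to 16591 in wild type and 14114 to 17154 in knockout. Among 11 tested, 3 were lower (Foxs1, Ndufa4l2 and Kcnj8, log2 -0.74, -0.69 and -0.62) and 1 higher (Notch3, log2 0.42), beside the same 17.0% and 17.3%. In the fit free of the length and GC trend 0 of 11 passed by limma, beside 6.64% lower and 6.07% higher of all genes. Of the 11, 4 (Notch3, Kcnj8, Anpep and Mcam) then had an unadjusted p under 0.05. The share of all genes under that unadjusted limit was not counted, so this count has no background beside it. The marker below the filter, Higd1b, held 1.68 to 7.22 in wild type and 0 to 2.33 in knockout. Of 22 tested skeletal muscle markers, 2 were lower in knockout with all libraries (Mb and Tnni1) and 0 higher, beside 17.0% and 17.3%, with a median log2 change of -2.075. In the comparison without wild-type library 1, 4 were lower (Tnnc1, Tnni1, Myl4 and Tnnt1) and 0 higher, beside 14.3% and 15.5% of all genes, with a median of -0.47. With the trend also removed, 0 passed by limma, beside 6.09% lower and 5.83% higher of all genes. An unadjusted p under 0.05 was seen for 2 (Ckm and Tnni1), again without a count of the share of all genes. Tnni1, troponin I of slow muscle, held 2577 and 3276 in wild-type libraries 3 and 4 and 1475 to 2018 in knockout. The part of these genes' source cells in the falls of Acta2, Tagln and Des was not tested.

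Among 13 markers of interstitial and peritubular cells, 6 rose and 1 fell with and without wild-type library 1, beside 17.3% and 17.0% of all genes with all libraries and 15.5% and 14.3% without it. The fall was that of Lgals1, which encodes galectin 1 (log2 -0.92, adjusted p = 0.00224). Ptch1 and Hhip, targets of Hedgehog signalling, were among the 6 (log2 2.49 and 0.73, adjusted p = 0.000744 and 0.00325). Gli1, another target, named after its values were seen, did not pass (log2 -0.04, adjusted p = 0.808). Free of the trend, 2 rose, Ptch1 among them, beside 6.07% of all genes, while Hhip was at 0.11 (adjusted p = 0.575) and Lgals1 had an adjusted p of 0.0708. The sum over this list was 62687 to 71674 in wild type and 58088 to 65160 in knockout. Wild-type library 1 was also highest in the summed level of fetal Leydig cell markers, at 107835 against 49286 to 70413 in the others, and lowest for erythroid markers, at 37366 against 83973 to 140611. It was lowest as well for endothelial markers, and its Sertoli cell marker sum of 71969 lay within the knockout range of 60142 to 84734.

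The genes whose pattern over the 6 libraries was most like the mean pattern of the 7 were, in order of Pearson r, 4930455C21Rik, Fsd1, Ehbp1l1, Eno3, Tppp3, Ccdc30, Dyrk1b, Alpl, Prss36 and Prr19, with r from 0.987 to 0.993. They were taken from 11776 genes with a mean value of at least 100, of which 136 had an r of at least 0.95. Among the 7 genes themselves r ran from 0.68 for Myh11 to 0.992 for Des. All 10 were highest in wild-type library 1. Eno3, the muscle form of enolase, held 1777 there, 587 and 639 in the other wild-type libraries, and 387 to 433 in knockout. It was past the threshold with and without that library (limma adjusted p = 0.0283 and 0.00547), as was Ehbp1l1 (0.0235 and 0.0196). Fsd1, Prr19 and Tppp3 passed in a single comparison, and 4930455C21Rik, Ccdc30, Dyrk1b, Alpl and Prss36 in neither. The 10 were picked for likeness over these same libraries, so these calls and their peak in wild-type library 1 follow partly from that choice.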

How the data were processed

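Gene values were the authors' deposited signal, upper-quartile normalised pseudo-counts per gene, which are fractional. CASAVA 1.8.2, edgeR 2.6.2 and build mm9 are named, per the submitters' processing notes, without their roles. Which aligner and which annotation served is not given in the sources used here. Only 0.193% of values of at least 1 lay within 0.001 of a whole number, so depth is unknown and no count model was run. Summed values were 22881124 to 23734462 per wild-type library and 21657342 to 21846849 per knockout library. All 6 columns matched a library by name, and 0 pairs of libraries were identical. Gene coordinates are those of the deposited table.

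The test was limma 3.58.1 (R 4.3.3), two-sided and with a mean-dependent prior, on log2(value + 1) for 15116 genes with at least 10 in at least 3 libraries, with Benjamini-Hochberg adjustment over all of them and a threshold of 0.05. Fold changes come from that scale, on which a low gene's change is understated. An exact permutation test of 3 against 3 libraries cannot go below p = 0.1, nor one of 2 against 3 below 0.2. The fits were checked on simulated data.

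Transcript length and GC content, from the longest protein-coding transcript in GENCODE vM21, were matched by gene identifier for 14449 genes (95.6%) and their trend was removed per library with natural splines of 4 degrees of freedom. Alternatives were other pseudocounts, filters, scalings, priors, library weights and libraries left out. The genes named were the 7, both targeted genes, Srf, Myocd, the 4 other actins, the 10 most alike, and up to 3 genes past the threshold from each list. The 7 genes, the lists and the removal of the trend were chosen with earlier results of these data known. Some genes of the lists are not reported here. Python 3.11.15 and matplotlib 3.10.9 drew the figures.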

Additional observations from a re-analysis of the deposited data

How the results depend on the processing

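No paired analysis was possible because wild-type and knockout libraries share no replicate number. The number of the 7 genes called lower was 2 with a robust prior (Actg2 and Lmod1), beside 2620 of all 15116 genes tested. It was 2 with no mean-dependent prior (Actg2 and Tagln), beside 1944 of all genes. With the length and GC trend removed it was 1, beside 6.64% of all genes. With 1 library left out it ran from 3 (without knockout library 7, where Acta2 had a limma adjusted p of 0.0551) to 6 (without wild-type library 3, where Cnn1 passed at 0.0238). Over all genes, 2146 and 2546 were called lower in these last 2 fits. The genes called higher stayed at 0 of 7 in each alternative. With 1 library left out, the log2 change of Myh11 ran from -0.35 (without wild-type library 3) to 0.22 (without wild-type library 1, where it reversed); with wild-type library 1 and another left out, it ran from 0.06 to 0.39. When each other library was left out besides wild-type library 1, a choice made after seeing the data, 1 to 4 were called lower: without wild-type library 4 Des alone passed (adjusted p = 0.0341; Acta2 0.195, Tagln 0.0837, Actg2 0.0987), a single wild-type library being assumed to vary like the others, and over all genes 37 to 2246 were then called lower and 241 to 2275 higher. Over all genes and all libraries, 1690 were called lower with equal totals, 959 lower and 877 higher with the trend removed, and 1397 to 2546 lower and 1635 to 2495 higher with 1 library left out. Without wild-type library 1 the counts were 504 and 969 with no mean-dependent prior (3 of the 7 genes lower) and 880 and 842 with the trend removed. With equal totals the median log2 change of all genes moved from -0.03 to 0.07 and 3511 genes were called higher; Acta2, Actg2, Tagln and Des kept their calls in both comparisons under equal totals, quantile normalisation and median of ratios. At a filter of 50 Lmod1 was not tested. The causes of these shifts were not tested. The 3 libraries a group and low values limit what can be said of Cnn1 and Lmod1.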

Other observations

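Among 10 markers of the mesonephric duct epithelium, which lies next to the gonad, 0 were lower and 2 higher with all libraries. The shares of all genes were 17.0% and 17.3%. Without wild-type library 1, 2 were lower and 2 higher, beside 14.3% and 15.5%. The sum over the list was 1293 to 1665 in wild type and 1391 to 1873 in knockout. Cdh16 and Wnt9b, chosen after their values were seen, varied widely within each genotype. Cdh16, an epithelial cadherin, held 23.6, 260 and 107 in wild-type libraries 1, 3 and 4 and 29.7, 140 and 11.9 in knockout libraries 5, 7 and 8. Its log2 change was -1.21 (limma adjusted p = 0.326), or -2.14 (adjusted p = 0.0283) without wild-type library 1. With the length and GC trend also removed, the latter was -1.94 and did not pass (limma adjusted p = 0.124). Wnt9b had its highest values in the same 3 libraries as Cdh16 (wild-type 3 and 4 and knockout 7). The smooth muscle genes did not share the order of Cdh16. Wild-type library 1, with the highest Acta2, had the second lowest Cdh16, and knockout library 7, with the lowest Acta2, Tagln, Des and Actg2, had the second highest.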
